A study of Mus musculus with 15 samples.

Results

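Light zone germinal centre B cells that carried little CD69 (Fraction 3) were compared with dark zone germinal centre B cells (DZ), with 3 libraries in each group, 6 of the 15 libraries of the series. CD69 is a surface protein that appears soon after a lymphocyte is stimulated, so the comparison addresses the difference between the zones without the light zone cells that had it at a high level. Both groups came from mice with the genotype B1-8hi (KI/+) Bcl6-YFP (KI/+). The B1-8hi knock-in gives B cells an antigen receptor with high affinity for the hapten NP, and the YFP reporter follows Bcl6. CD45.1+ B cells of these donors were transferred to C57BL6 mice that were then immunized with NP-CGG in CFA, the protein carrier of NP in complete Freund's adjuvant. On day 12, cells that were B220+, CD45.1+, CD38lo and GL7hi were sorted from the draining lymph nodes, 100 cells for each library. DZ cells were further CXCR4hi and CD86lo, and Fraction 3 cells were CXCR4lo, CD86hi, CD69lo and Bcl6hi, so that CD69 and Bcl6 gated the light zone arm alone. Fraction 2, the Bcl6hi CD69hi light zone cells from donors of the same genotype, is shown beside them. All transferred cells thus carried the same receptor knock-in, which limits the groups as a model of a polyclonal response. The labels describe the replicates as independent library preparations without naming the animals behind them, so the p-values rest on library-to-library spread alone, part or all of which may be technical. Age and sex were not given. The table held 23420 genes, and the 11190 genes above 0 in at least 3 of the 15 libraries were tested.

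In a germinal centre, B cells divide and mutate their antibody genes in the dark zone, which they enter and stay in through CXCR4. They move to the light zone to bind antigen on follicular dendritic cells, present its peptides on MHC class II to T follicular helper cells, and receive CD40 and cytokine signals in return. A minority of light zone cells is positively selected, turns on Myc and returns to divide in the dark zone.

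The level used throughout is the deposited signal after each library was scaled to the same total, with the ribosomal RNA precursor Rn45s left out. A level of 1 molecule ran from 0.138 to 0.160 in DZ and from 0.145 to 0.176 in Fraction 3. Values are mean ± SD over n = 3 libraries, folds are ratios of mean levels, and changes are Fraction 3 minus DZ in log2(level + 1) ± SE, which understates the change of low genes. Both groups had a similar depth, with 256836 to 305359 molecules in DZ and 231687 to 284688 in Fraction 3, and 9682 to 9819 against 9524 to 9744 genes above 0. The ratio of the mean totals without Rn45s was 0.948 (exact two-sided permutation p = 0.6, where 0.1 is the smallest p that 3 against 3 allows). Rn45s took 6.17% to 8.42% of the total in DZ and 5.40% to 6.31% in Fraction 3.

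The zones differed in 118 genes, 1.05% of those tested, at a Benjamini-Hochberg adjusted p under 0.05. Of these, 64 were higher (0.572%) and 54 lower (0.483%) in Fraction 3, and in all 118 the 3 libraries of one group lay outside the range of the other. Over all tested genes, 881 (7.87%) were higher and 720 (6.43%) lower without overlap, and the median change was 0.00. The largest rises were in Cd83, Fcer2a and Il4i1, and the largest falls in Pafah1b3, Myl4 and Lmo4. The spread in this fit came from all 5 groups of the series, including germinal centre plasmablasts from tamoxifen-treated mice. With the 6 libraries alone no gene passed the threshold (smallest adjusted p = 0.0652), while 1147 genes had an unadjusted p under 0.05, against 1123 in the fit over 15 libraries, and these 1147 included all 118. On the deposited scale 27 genes were called, all of them among the 118. Without 1 library the count was 56 (Fraction 3 replicate 2), 43 (Fraction 3 replicate 3), 49 (DZ replicate 1), 77 (DZ replicate 2) or 65 (DZ replicate 3). The count was highest, though still under 118, without Fraction 3 replicate 1.

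Of the 78 genes named by rule, 57 were called. The call held without each of the 6 libraries for 25 of them, namely Cd83, Fcer2a, Il4i1, Snn, Cd86, Myc, Nfkb2, Marcksl1, Serpinb6b, Slamf1, Syngr2, Gatm, Ccr6, Ifi30, H2-Aa, H2-Ab1, Tnfrsf13c, Basp1, Pafah1b3, Myl4, Lmo4, Rgcc, Smarca4, Anxa2 and Mzb1. The other 32 lost it without at least 1 library. On the deposited scale 19 kept the call, which were Cd83, Fcer2a, Il4i1, Snn, Cd86, Myc, Marcksl1, Slamf1, Syngr2, Ifi30, Tnfrsf13c, Myl4, Lmo4, Rgcc, Mprip, Smarca4, Foxp1, Anxa2 and Mzb1. None of the 57 changed direction under any alternative that was run.

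The genes used for sorting check the labels and are not findings. Cxcr4, the receptor for the dark zone chemokine CXCL12, had levels of 10.7, 11 and 13.6 in DZ and of 7.38, 6.66 and 5.46 in Fraction 3 (change -0.77 ± 0.17, adjusted p = 0.0302). Cd86, a costimulatory ligand for T cells, had levels of 1.28, 2.76 and 0.723 in DZ and of 4.78, 5.43 and 5.28 in Fraction 3 (change 1.33 ± 0.22, adjusted p = 0.00378). Both moved in the direction of the gates without overlap. Cd69 transcripts did not separate the groups, at 1.92 ± 0.859 in DZ and 2.17 ± 0.501 in Fraction 3 (change 0.15 ± 0.36, adjusted p = 0.945). Bcl6, a transcriptional repressor central to the germinal centre programme, was at 17.9 ± 2.31 in DZ and 21.3 ± 0.698 in Fraction 3 and did not pass (adjusted p = 0.66). Ptprc, which encodes the B220 and CD45 antigens that both gates used, was higher in Fraction 3 at 37.4 ± 3.47 against 27.0 ± 1.99 (change 0.46 ± 0.11, adjusted p = 0.047), and that call was lost without each of 5 of the 6 libraries (change 0.41 to 0.53).

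Light zone surface and activation genes formed the group with the highest median change among the lists examined. Of the 29 tested members, 8 were higher and 0 lower, 27 had a change above 0, and the median was 0.58. The 8 include Cd86, which the gates fixed. Cd83, an activation marker that stabilizes MHC class II and CD86 at the surface, had levels of 2.24, 2.62 and 4.05 in DZ and of 11.1, 12.3 and 12.7 in Fraction 3, a 4.05-fold difference (change 1.74 ± 0.24, adjusted p = 0.00107). Fcer2a, the low-affinity IgE receptor CD23 on chromosome 8 (3681737 to 3694175, mm10), had levels of 1.01, 2.04 and 3.04 in DZ and of 7.88, 10.9 and 5.84 in Fraction 3 (4.04-fold, change 1.62 ± 0.27). In both genes the lowest Fraction 3 library was above the highest DZ library. The Fcer2a values were not whole numbers of molecules in any of the 6 libraries, so its level is uncertain. The cause was not tested.

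Il4i1, a secreted amino acid oxidase induced by IL-4, had levels of 0.40, 0.207 and 0.868 in DZ and of 1.66, 3.15 and 5.55 in Fraction 3 (change 1.51 ± 0.26, adjusted p = 0.00475). Its 3 Fraction 3 libraries spread widely but did not reach down to DZ. In 4 of the 6 libraries its value was not a whole number of molecules. Cr2, the complement receptor CD21 that lowers the threshold of the B cell receptor, had levels of 1.92, 4.0 and 2.6 in DZ and of 8.39, 7.18 and 8.10 in Fraction 3 (2.78-fold, change 1.24 ± 0.24, adjusted p = 0.0105). The Cr2 call was lost without Fraction 3 replicate 3, DZ replicate 1 or DZ replicate 3, with changes of 1.06 to 1.45 over the 6 omissions. Slamf1, a contact receptor between B and T cells, rose from 0.825 ± 0.167 to 3.09 ± 0.423 (3.75-fold, adjusted p = 0.00291). Ccr6, the CCL20 receptor of naive and memory B cells, was above 0 in 1 of 3 DZ libraries, at 0.145, and had levels of 0.579, 1.05 and 0.704 in Fraction 3 (change 0.76 ± 0.12, adjusted p = 0.00342).

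Other members of this list were above DZ in level without passing the test. Egr1, an immediate early gene of receptor signalling, had levels of 2.40, 3.59 and 1.88 in DZ and of 4.63, 7.71 and 10.2 in Fraction 3 (adjusted p = 0.057). Nfkbia, the NF-kB inhibitor that is itself an NF-kB target, was at 3.25 ± 0.921 and 8.30 ± 1.36 (change 1.14 ± 0.31, adjusted p = 0.102). Cd40, the receptor for T cell help, was at 0.647 ± 0.338 and 1.71 ± 0.247 (change 0.74 ± 0.20, adjusted p = 0.0863). Cxcr5, the follicle-homing receptor and a zone key gene outside this list, was at 4.75 ± 2.05 and 8.62 ± 0.777 (adjusted p = 0.10). The libraries of these 4 genes did not overlap between the groups. Egr2 was above 0 in 1 DZ and 2 Fraction 3 libraries (adjusted p = 0.434), and Egr3 was listed at 0 in all 6.

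**Figure D1:**
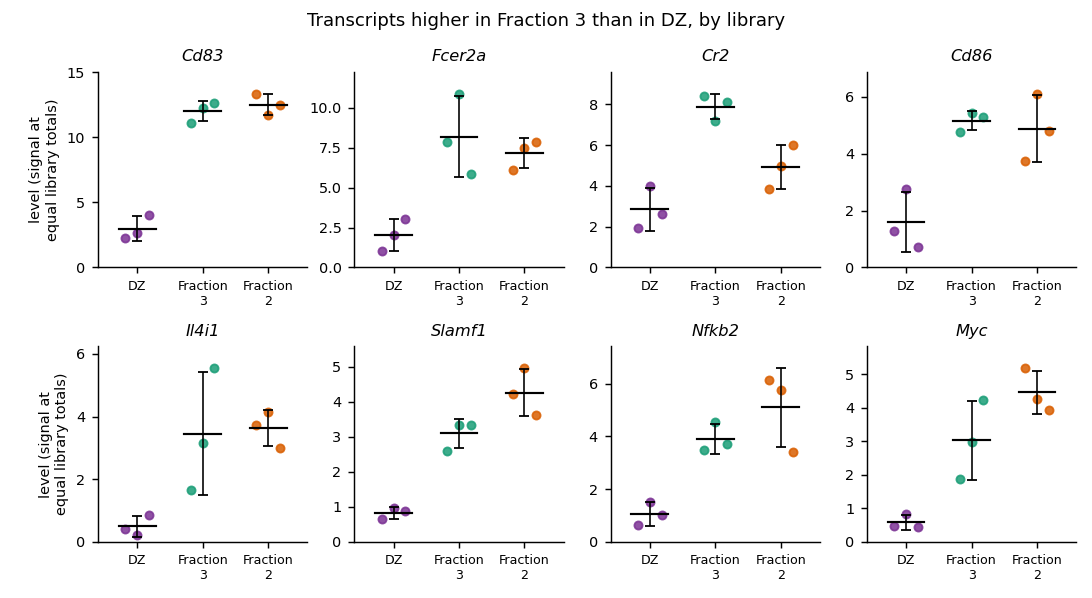
Level of 8 named transcripts in each library (vertical axes, signal at equal library totals) for DZ, Fraction 3 and Fraction 2; dots are libraries, long bars the means and whiskers ± 1 SD over 3 libraries. In each panel every Fraction 3 library lies above every DZ library, as for Cd83 at 11.1 to 12.7 against 2.24 to 4.05.

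Genes of antigen presentation on MHC class II were higher in Fraction 3. Of 20 tested members 8 were higher and 0 lower, with a median change of 0.47, and the summed level of the list was 503 to 599 in DZ and 782 to 905 in Fraction 3. H2-Aa, the alpha chain of I-A, had levels of 70.1, 79.5 and 83.2 in DZ and of 115, 143 and 132 in Fraction 3 (1.67-fold, change 0.73 ± 0.12, adjusted p = 0.00273). Its partner H2-Ab1 rose from 56.5 ± 5.08 to 85.2 ± 5.05 (1.51-fold, adjusted p = 0.0042), and the I-E beta chain H2-Eb1 from 66.0 ± 9.98 to 108 ± 8.33 (1.64-fold, adjusted p = 0.00773). Cd74, the invariant chain that guides class II molecules to endosomes, had levels of 235, 231 and 277 in DZ and of 366, 424 and 412 in Fraction 3 (1.62-fold, change 0.69 ± 0.13). The structural chains thus differed by similar folds and without overlap.

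Ifi30, the endosomal thiol reductase GILT that opens disulfide bonds of antigens, shared the smallest adjusted p of the comparison. It had levels of 5.93, 6.76 and 7.38 in DZ and of 15.5, 14.7 and 13.9 in Fraction 3 (2.20-fold, change 1.03 ± 0.12, adjusted p = 0.000175). The remaining 3 called members were outside the naming rule and were picked after their values were seen. H2-Oa, a chain of the H2-O inhibitor of peptide loading, rose from 2.90 ± 0.280 to 7.01 ± 1.71, Ciita, the transactivator of class II genes, from 5.12 ± 1.60 to 9.72 ± 2.77 (adjusted p = 0.0434), and the protease gene Ctsh from 7.68 ± 0.297 to 14.1 ± 1.85. The processing and turnover genes Lgmn, Ctsz, Ctsl and March1 had changes below 0 that did not pass, the lowest in March1, the ligase that removes class II from the surface (change -0.61, adjusted p = 0.22). The peptide-loading chain H2-DMa had a change of 0.41 and did not pass (adjusted p = 0.47). The calls of Cd74 and H2-Eb1 were among those lost without 1 library, Cd74 without Fraction 3 replicate 3 or DZ replicate 1 (change 0.65 to 0.78) and H2-Eb1 without Fraction 3 replicates 2 or 3 or DZ replicates 1 or 2 (0.65 to 0.83).

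Promoters of class II genes share a CCAAT box, the site of the factor NF-Y, and 3 proximal promoters are shown for the class II members that rose. The sequences are from RefSeq on GRCm38.p6, the build that mm10 denotes, read 5′ to 3′ on the strand of the gene, with CCAAT or its reverse complement ATTGG in capitals. The first 2 stretches cover the 80 bases before the annotated start, and the H2-Oa stretch covers bases 55 to 26 before it. The GENCODE model of H2-Oa starts at 34092340, so the H2-Oa stretch runs into that model.
H2-Aa, chr17:34287824-34287903, minus strand: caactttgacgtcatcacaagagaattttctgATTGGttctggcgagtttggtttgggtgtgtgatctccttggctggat
H2-Eb1, chr17:34305787-34305866, plus strand: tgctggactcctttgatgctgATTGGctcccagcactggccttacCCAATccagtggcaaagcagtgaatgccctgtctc
H2-Oa, chr17:34092324-34092353, plus strand: agaactgctctgATTGGctgcttaccgcaa
Over the 250 bases before the start, searched on both strands, the box was in 9 of the 14 class II list members with a RefSeq promoter (64.3%) and in 34.5% of all 27025 promoters. It was also in 49 of 66 mitosis genes (74.2%), a list with 1 call, so that the letters were not particular to genes that changed. A match describes these letters and is not a bound site.

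**Figure D2:**
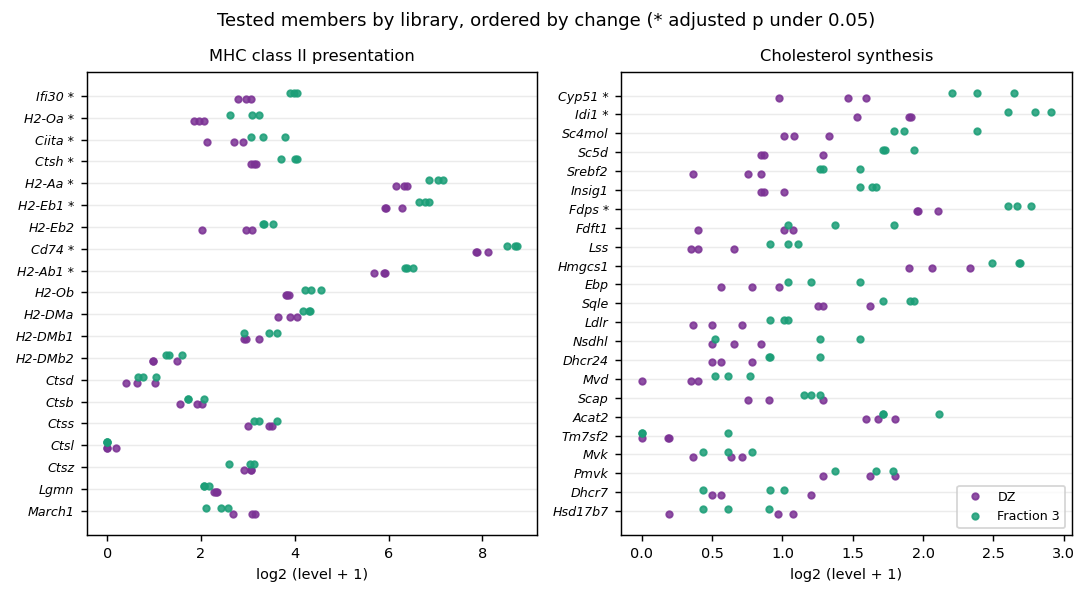
Each tested member of the MHC class II list (left) and 23 of the 24 of the cholesterol synthesis list (right) in the DZ and Fraction 3 libraries, as log2(level + 1) on the horizontal axis; dots are libraries, genes are ordered by change and an asterisk marks an adjusted p under 0.05. Of the 20 class II genes 11 were higher without overlap, and of the 24 cholesterol genes 15 were, set against 7.87% over all tested genes.

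B cell receptor signalling genes were higher for 5 and lower for 0 of 39 tested members, with a median change of 0.18. Besides Cr2 and Ptprc these were Cd72, Ptpn6 and Grb2. Cd72, an inhibitory coreceptor that recruits the phosphatase SHP-1, had levels of 1.60, 1.10 and 2.31 in DZ and of 4.05, 7.01 and 4.58 in Fraction 3 (3.12-fold, change 1.21 ± 0.22, adjusted p = 0.00646), and this call was lost without Fraction 3 replicate 2. Ptpn6, the gene of SHP-1 itself, rose from 13.4 ± 1.82 to 23.2 ± 3.54 (adjusted p = 0.0101), and the adaptor Grb2 from 18 ± 2.67 to 29.7 ± 1.46 (adjusted p = 0.0236). The genes that passed thus included an inhibitory receptor and its phosphatase. The kinases Syk (change -0.55, adjusted p = 0.06), Lyn (-0.16), Blk (-0.23), Btk (0.16) and Fyn (0.72, adjusted p = 0.067) went in both directions and did not pass. Tnfrsf13c, the receptor for the survival factor BAFF, rose from 13.9 ± 1.30 to 27.1 ± 3.02 (1.94-fold, change 0.91 ± 0.14, adjusted p = 0.00255).

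NF-kB and CD40 targets were called in 2 of 34 tested members, Cd83 and Nfkb2, although 31 members had a change above 0 and the median was 0.34. Nfkb2, the p100 subunit of the alternative NF-kB pathway, had levels of 0.641, 1.52 and 1.01 in DZ and of 3.47, 4.56 and 3.70 in Fraction 3 (3.70-fold, change 1.27 ± 0.22, adjusted p = 0.0042). Members that did not pass included Bcl3 (change 0.83, adjusted p = 0.063), Relb (0.73, adjusted p = 0.19) and Nfkb1 (0.53, adjusted p = 0.10). Immediate early genes were called in 2 of 28, Myc and Zfp36. Myc, the growth regulator of positively selected cells, had levels of 0.480, 0.828 and 0.434 in DZ and of 1.88, 2.98 and 4.23 in Fraction 3 (5.21-fold, change 1.32 ± 0.23, adjusted p = 0.00452). Every Fraction 3 library was above every DZ library, and Fraction 2 was at 4.46 ± 0.641, not distinguished from Fraction 3 (difference -0.47, adjusted p = 0.441). Among 46 MYC targets and ribosome biogenesis genes 2 were higher, Myc and the lactate dehydrogenase gene Ldha (18.2 ± 1.35 and 25.6 ± 0.262, adjusted p = 0.0455), and the median change was 0.11. The Ldha call was lost without each library (change 0.43 to 0.53). Unlike Myc itself, the MYC target list as a whole lay nearer DZ than Fraction 2 in Fraction 3. Its summed level was 257 to 289 in DZ, 289 to 325 in Fraction 3 and 463 to 487 in Fraction 2. The median difference of its members, Fraction 3 minus Fraction 2, was -0.51.

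Promoter stretches of 3 of the higher genes that hold a match to a short NF-kB consensus (GGG, then any 5 bases, then CC, on either strand) are given with the match in capitals, because these are among the genes with the largest changes. They are again RefSeq sequence on GRCm38.p6, each 30 bases long and within the 250 bases before the annotated start. The Nfkb2 and Il4i1 stretches lie inside longer GENCODE gene models.
Nfkb2, chr19:46304687-46304716, plus strand: gggatcgtcacGGGAATTCCCCccctcggg
Il4i1, chr7:44836079-44836108, plus strand: ccacctgggtGGGTAGTCCCCacccccagc
Fcer2a, chr8:3694270-3694299, minus strand: ataatagcccGGACTTCCCCaggttctagg
In Nfkb2 and Il4i1 the capitals cover overlapping matches. This short motif was in 45.4% of all promoters, in 30 of 47 higher genes with a RefSeq promoter (63.8%) and in 30 of 44 lower genes (68.2%), so that it did not set the higher genes apart.

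Cholesterol synthesis genes were called in 3 of 24 tested members, all higher, and 23 of 24 had a change above 0, with a median of 0.48. Cyp51, the lanosterol demethylase, had levels of 1.76, 0.966 and 2.03 in DZ and of 3.62, 5.26 and 4.23 in Fraction 3 (2.76-fold, change 1.07 ± 0.21, adjusted p = 0.0112). Idi1, the isopentenyl diphosphate isomerase, rose from 2.45 ± 0.497 to 5.84 ± 0.721 (2.38-fold, adjusted p = 0.00718), and Fdps, the farnesyl diphosphate synthase, from 3.03 ± 0.245 to 5.42 ± 0.369 (adjusted p = 0.0434). Each of the 3 calls was lost without at least 1 library, Cyp51 without Fraction 3 replicates 2 or 3 or DZ replicate 2 (0.88 to 1.19), Idi1 without Fraction 3 replicate 3 or DZ replicate 3 (0.87 to 1.07) and Fdps without each (0.63 to 0.72). The summed level of the list was 27.9 to 29.2 in DZ, 50.4 to 53.7 in Fraction 3 and 44.3 to 46.1 in Fraction 2, so that both light zone groups stood above DZ. In the list of unfolded protein response and endoplasmic reticulum (ER) folding genes, with 36 tested, 3 were higher and 0 lower, with a median change of 0.10. The 3 genes are chaperones or a chaperone cofactor, while Eif2ak3 (change -0.91, adjusted p = 0.23), Derl2, Ssr3 and Sec61g had levels below DZ without overlap and did not pass. Hspa5, the chaperone BiP, rose from 10.2 ± 1.05 to 17 ± 0.807 (adjusted p = 0.00773), Calr, calreticulin, from 14.7 ± 2.83 to 21.9 ± 2.51 (adjusted p = 0.0323), and Sdf2l1, a BiP cofactor, from 1.14 ± 0.307 to 2.84 ± 0.711 (adjusted p = 0.0373).

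Further named genes rose that belong to other lists or to none. Snn, which encodes the small membrane protein stannin, had levels of 0.320, 0.138 and 0.145 in DZ and of 1.88, 2.45 and 2.82 in Fraction 3 (11.9-fold, change 1.49 ± 0.20, adjusted p = 0.00107). The DZ libraries held 1 or 2 molecules of it each, so the fold is imprecise. Marcksl1, an actin-binding substrate of protein kinase C, rose from 4.72 ± 0.539 to 12.6 ± 3.13 (2.67-fold, adjusted p = 0.00163), and Syngr2, a vesicle membrane protein, from 4.69 ± 1.83 to 10.7 ± 1.47 (2.27-fold, adjusted p = 0.00273). Faim3, the Fc receptor for IgM, was at 6.73 ± 0.740 and 12.5 ± 1.48 (adjusted p = 0.0346). With Fcer2a and Ccr6 it made up the 3 higher genes of 24 tested from memory and naive B cells. Of these 24, 14 had a change above 0 and 10 below. Without overlap, 7 were higher and 4 lower, the latter including Cmah (change -0.88, adjusted p = 0.06). Basp1, a membrane-bound signalling protein, rose from 20.9 ± 1.69 to 35.6 ± 1.82 (1.70-fold, adjusted p = 0.0042).

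Dark zone genes outside the cell cycle were lower in 5 and higher in 0 of 21 tested members, with a median change of -0.26. The list was chosen with earlier results of these data known, so its count and median are not independent support for a zone difference. Pafah1b3, a catalytic subunit of a platelet-activating factor acetylhydrolase on chromosome 7 (25295049 to 25297986, mm10), had levels of 13, 14.2 and 10.7 in DZ and of 5.06, 2.63 and 3.52 in Fraction 3 (3.38-fold lower, change -1.55 ± 0.24, adjusted p = 0.00272). Myl4, a myosin light chain on chromosome 11 (104550663 to 104595753), had levels of 9.61, 8.97 and 6.65 in DZ and of 3.33, 1.75 and 2.99 in Fraction 3 (3.13-fold lower, change -1.36 ± 0.21, adjusted p = 0.00272). Neither gene reached 0 in the light zone cells. Foxp1, a forkhead repressor of B cell differentiation, was at 9.15 ± 0.447 and 4.24 ± 0.484 (2.16-fold lower, change -0.96 ± 0.20, adjusted p = 0.0172), and its call was lost without 5 of the 6 libraries in turn, Fraction 3 replicate 2 being the exception (change -1.02 to -0.89). Gcsam, a germinal centre protein that tunes receptor signalling and motility, was at 16.4 ± 1.81 and 8.66 ± 1.83 (1.89-fold lower, adjusted p = 0.0258). Cxcr4, which the gates fixed, was the other called member.

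Foxo1, the transcription factor required for the dark zone programme, had levels of 13.8, 12.3 and 13.7 in DZ and of 7.96, 10.2 and 9.16 in Fraction 3. Its libraries did not overlap, but the change of -0.50 ± 0.18 did not pass (adjusted p = 0.263). Bach2, which represses the plasma cell fate, was at 26.7 ± 1.06 and 23.9 ± 0.647 (adjusted p = 0.759). S1pr2, which confines cells to the follicle, was at 14.6 ± 0.489 and 15.4 ± 2.09 (adjusted p = 0.959). At this depth these 3 genes were not called. The other key genes without a call were Irf8 (25.6 ± 1.81 and 32.0 ± 2.04), a factor of germinal centre B cells, Irf4 (0.438 ± 0.131 and 0.575 ± 0.384), a factor of plasma cell fate, the egress receptor Gpr183 (0.834 ± 0.543 and 0.320 ± 0.132) and Gna13, the G protein of S1pr2 signalling (15.2 ± 1.36 and 13.6 ± 0.701). Cd38, low in both gates, was at 0.557 ± 0.281 and 1.11 ± 0.213 (adjusted p = 0.43).

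Other large falls were in genes outside the zone lists. Lmo4, a LIM-domain transcriptional adaptor, had levels of 7.85, 11.5 and 9.55 in DZ and of 2.89, 4.73 and 2.47 in Fraction 3 (2.86-fold lower, change -1.30 ± 0.19, adjusted p = 0.00163). Rgcc, a regulator of the cell cycle induced by complement, was at 4.15 ± 0.727 and 1.29 ± 0.275 (3.21-fold lower, adjusted p = 0.00465). Smarca4, the BRG1 ATPase of the SWI/SNF remodeller, was at 18.3 ± 1.93 and 8.92 ± 1.54 (2.05-fold lower, adjusted p = 0.00378), and Anxa2, a membrane-binding annexin, at 21.2 ± 1.76 and 10.7 ± 0.571 (1.98-fold lower, adjusted p = 0.00629). Tgfbr1, a receptor chain for TGF-beta, had narrow groups at 5.53 ± 0.251 and 2.33 ± 0.254 (adjusted p = 0.0321), although its call was lost without each library (change -1.03 to -0.92). The rest of the 15 largest falls were in Serinc5, Gpd1l, Otub2, Cenpv, Mprip, Blvrb and 2310001H17Rik, with changes from -1.09 to -0.92. Mprip values were not whole numbers of molecules in any of the 6 libraries. Among all 54 lower genes, 7 were listed at 0 in each Fraction 3 library, with DZ means of 0.242 (Gdf15) to 0.636 (Scn11a).

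**Figure D3:**
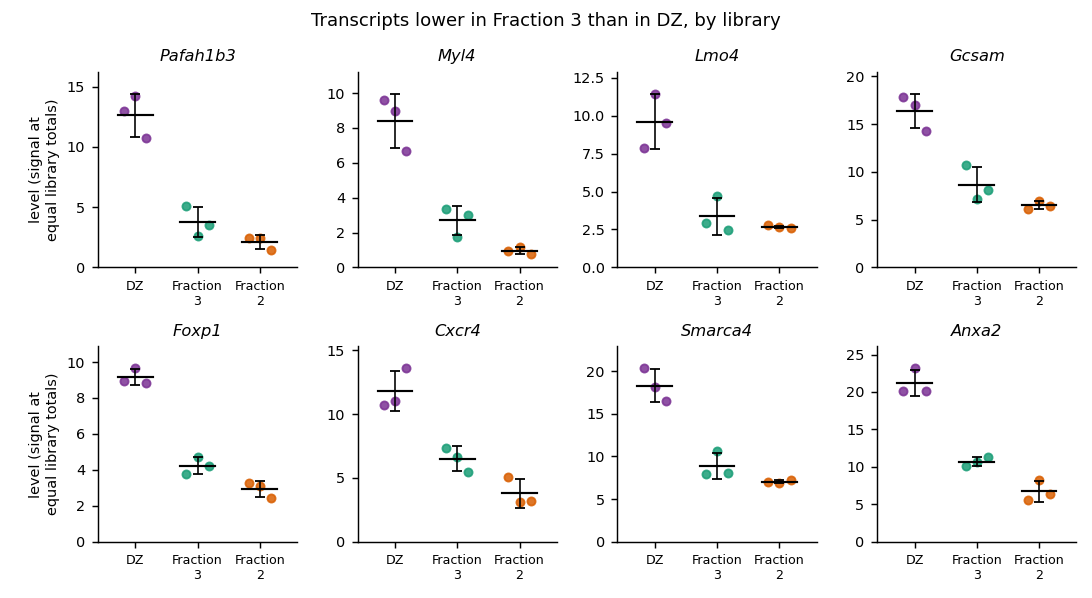
Level of 8 named transcripts that were lower in Fraction 3 (vertical axes, signal at equal library totals) in each DZ, Fraction 3 and Fraction 2 library; dots are libraries, long bars means and whiskers ± 1 SD over 3 libraries. Each Fraction 3 library lies below each DZ library, as for Pafah1b3 at 2.63 to 5.06 against 10.7 to 14.2, and the Fraction 2 means of the 8 genes lie below those of Fraction 3.

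Genes of antibody mutation and DNA repair were called in 1 of 41 tested members, against 1.05% of all tested genes. A single call does not set a list of this size apart. This was 8430410A17Rik, an older symbol of Hmces, which shields abasic sites in DNA. It had levels of 23.2, 25.4 and 19.5 in DZ and of 16.5, 12.4 and 10.2 in Fraction 3 (1.74-fold lower, change -0.77 ± 0.18, adjusted p = 0.034), and the call was lost without Fraction 3 replicates 2 or 3 or DZ replicates 1 or 2 (-0.94 to -0.62). Ung, the uracil DNA glycosylase, and Polh, an error-prone DNA polymerase, had changes of -0.02 and 0.03 and did not pass.

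Germinal centre and B cell identity genes were lower in 3 and higher in 1 of 36 members, with a median change of 0.04. Pou2af1, a coactivator of octamer-dependent transcription in B cells, was at 72.7 ± 5.04 and 54.0 ± 3.57 (1.35-fold lower, adjusted p = 0.0459), a call lost without each library (change -0.47 to -0.37). It fell with Foxp1 and Gcsam, while Basp1 rose. Mzb1, an ER protein of antibody-secreting and marginal zone B cells, was the 1 called gene of 30 in the plasma cell programme. It had levels of 25.0, 29.5 and 26.6 in DZ and of 17.8, 15.9 and 16.0 in Fraction 3 (1.63-fold lower, change -0.67 ± 0.10, adjusted p = 0.00222). Mtf2, a polycomb-like accessory protein, was the 1 called member of 31 polycomb genes, at 20.0 ± 1.63 and 12.7 ± 2.20 (adjusted p = 0.0419), and its call was lost without each library (-0.70 to -0.48). Ezh2, the polycomb methyltransferase that germinal centre cells express highly, was at 8.57 ± 1.09 and 9.08 ± 0.670 (adjusted p = 0.945). Over all tested genes 1.05% were called, so 1 call does not set the plasma cell or the polycomb list apart.

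Cell cycle genes gave few calls, as did all tested genes, of which 1.05% were called. Lists of these sizes are too short for a low count to set them apart. None of 46 G1/S and replication genes was called (median 0.08), and of 83 G2/M and mitosis genes 1 was, with a median of -0.05 and 39 members above 0 against 44 below. Cdc25b, the phosphatase that starts mitosis, was that gene, at 9.10 ± 0.882 in DZ and 4.78 ± 0.371 in Fraction 3 (1.90-fold lower, change -0.80 ± 0.19, adjusted p = 0.0369), and its call was lost without each library (-0.86 to -0.73). Mki67, the proliferation antigen, had levels of 41.2, 40.7 and 30.2 in DZ and of 37.5, 32.1 and 35.6 in Fraction 3, which overlapped (change -0.08 ± 0.15, adjusted p = 0.922). Ccnd3, the cyclin that sustains dark zone divisions, was at 22.2 ± 2.97 and 19.8 ± 0.834 (adjusted p = 0.824). The 33 histone variant and chromatin genes gave no call, nor did the 34 apoptosis regulators and the 26 interferon genes. Over these 5 lists with few or no calls the medians ran from -0.05 to 0.14.

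Housekeeping lists had small changes in a common direction without any call. Of 79 cytosolic ribosomal protein genes 71 had a change below 0, with a median of -0.09, and 21 were lower without overlap, set against 6.43% over all genes. Of 74 oxidative phosphorylation genes 59 were below 0, with a median of -0.10. The ribosomal protein total was 8192 to 8710 in DZ and 7878 to 8168 in Fraction 3. In libraries of pooled cells, fewer cells with a transcript and less of it per cell cannot be told apart.

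**Figure D4:**
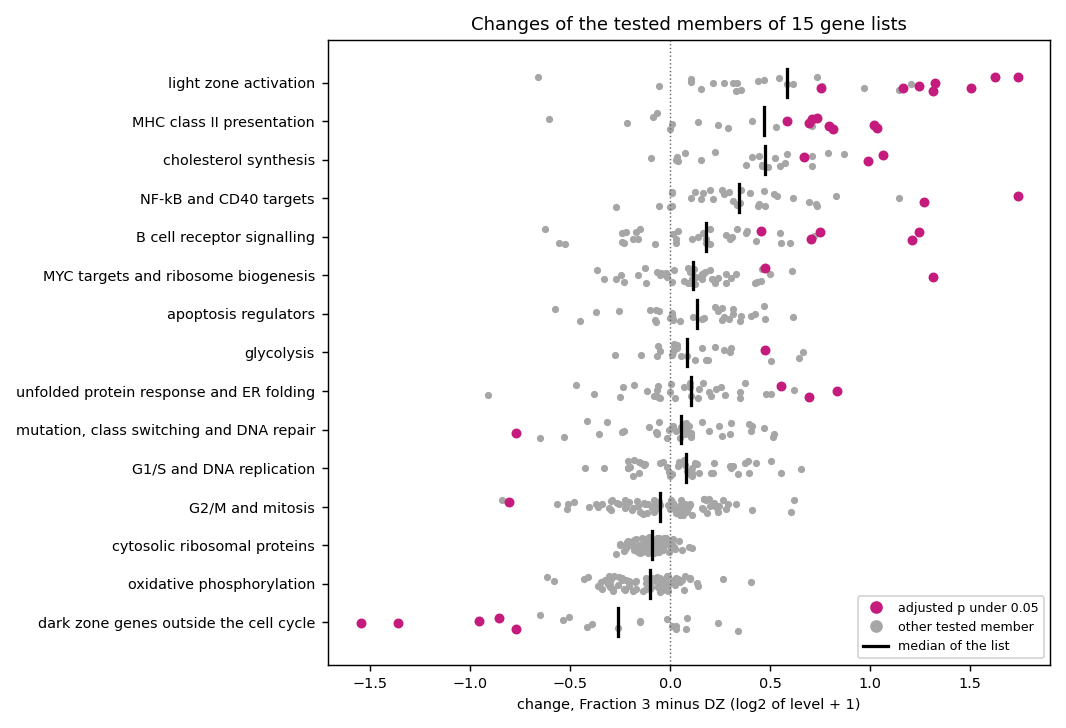
Change of every tested member of 15 gene lists (horizontal axis, Fraction 3 minus DZ in log2 of level + 1); coloured points have an adjusted p under 0.05, grey points do not, and the vertical bars are list medians. Light zone, class II and cholesterol genes lie to the right with medians of 0.58, 0.47 and 0.48, and dark zone genes outside the cell cycle to the left with a median of -0.26. The lists were chosen with earlier results of these data known.

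Markers of other cell types were measured in the same libraries. All 12 germinal centre B cell markers were above 0 in at least 1 library, with a summed level of 276 to 295 in DZ and 285 to 298 in Fraction 3. Among them Pax5 was near the floor, with levels of 0, 0.138 and 0 in DZ and of 0, 0 and 0.352 in Fraction 3. The T cell genes Cd3d, Cd3e, Cd3g and Cd4 were listed at 0 in all 6 libraries, as were 9 of the 17 T cell markers in the table, and their summed level was 5.38 to 7.05 in DZ and 5.50 to 8.06 in Fraction 3. Lck, a Src kinase best known in T cells, was higher, with levels of 2.24, 1.93 and 1.30 in DZ and of 3.76, 4.91 and 4.40 in Fraction 3 (change 0.93 ± 0.22, adjusted p = 0.0452), and its call was lost without each library (0.79 to 1.04). The adhesion receptor Cd2 went the other way, at 4.14 ± 0.620 and 2.22 ± 0.667. Of 19 myeloid markers 12 were listed at 0, Lyz2, Itgam and Itgax among them, and the sum was 8.56 to 11.4 in DZ and 8.25 to 11.9 in Fraction 3. The follicular dendritic and stromal list summed to 7.53 to 9.40 and 12.4 to 16.1, through Cr2 and Fcgr2b, which B cells also express. The collagen genes Col1a1, Col1a2 and Col3a1 of that list were at 0. The plasma cell list summed to 71.6 to 74.9 in DZ and 48.2 to 57.6 in Fraction 3, mainly Igj, the antibody joining chain, and Mzb1. Igj was at 40.9 ± 1.65 and 30.8 ± 4.27, while Sdc1 was at 0 in all 6 libraries and Prdm1 above 0 in 1 of them. The part of plasma cell transcripts in the fall of Mzb1 was not tested.

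A direct test of Fraction 3 against Fraction 2 asked where the change between the zones differed between CD69-low and CD69-high cells. It called 77 genes (0.688%), 28 higher (0.25%) and 49 lower (0.438%) in Fraction 3, and 6 of them were also among the 118. With these 6 libraries alone 0 genes were called by limma, against 1414 at an unadjusted p under 0.05. The called class II genes, Cd83, Fcer2a, Cd86, Il4i1, Pafah1b3, Foxp1 and Gcsam did not pass this test. Cd69 transcripts did not pass it either, although the CD69 gate parted these groups. They were at 2.17 ± 0.501 in Fraction 3 and 2.91 ± 0.884 in Fraction 2 (difference -0.29, adjusted p = 0.863). For Myl4 the levels were 2.69 ± 0.830 in Fraction 3 and 0.961 ± 0.194 in Fraction 2 (difference 0.89, adjusted p = 0.0552), and for Cxcr4 6.50 ± 0.970 and 3.78 ± 1.10 (0.67, adjusted p = 0.0833).

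Among the named genes, the CD69-high cells stood apart in Ccnd2, Batf and Cd40. Ccnd2, a D cyclin, had levels of 0, 0.0455 and 0 in DZ, of 0, 0.175 and 0.704 in Fraction 3 and of 4.70, 7.84 and 3.61 in Fraction 2 (difference -2.29 ± 0.22, adjusted p = 1.82e-05). Batf, an AP-1 family factor of class switching and T cell help responses, was at 0.848 ± 0.40 in Fraction 3 and 4.39 ± 0.840 in Fraction 2 (-1.56 ± 0.20, adjusted p = 0.000442). Cd40 was at 1.71 ± 0.247 and 4.41 ± 0.626 (-0.99 ± 0.20, adjusted p = 0.0224). Outside the naming rule, the NF-kB and CD40 targets Birc3 (-0.97, adjusted p = 0.00446) and Bcl3 (-0.93, adjusted p = 0.043) also passed. The median difference of that list was -0.25. Between Fraction 3 and DZ, Ccnd2 and Batf did not pass the test (adjusted p = 0.705 and 0.291). Gatm, the first enzyme of creatine synthesis, was intermediate, with levels of 2.24, 1.66 and 1.74 in DZ, 5.21, 4.03 and 5.99 in Fraction 3 and 8.55, 10.7 and 9.52 in Fraction 2.

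Other genes set the CD69-low cells apart from Fraction 2 in the opposite sense. Bach2 was at 23.9 ± 0.647 in Fraction 3 and 11.7 ± 0.942 in Fraction 2 (difference 0.97 ± 0.12, adjusted p = 0.000442), so that Fraction 3 lay near the DZ level. Serpinb6b, an intracellular protease inhibitor, had levels of 0.160, 0.276 and 0.145 in DZ, 1.74, 2.37 and 1.23 in Fraction 3 and 0.482, 0.692 and 0.109 in Fraction 2 (9.18-fold above DZ, adjusted p = 0.00273, and 0.96 ± 0.19 above Fraction 2, adjusted p = 0.0233). With 1 or 2 molecules in each DZ library, this fold too is imprecise. Zfp36, which destabilizes AU-rich mRNAs, was at 7.16 ± 0.105 in DZ, 14.2 ± 1.2 in Fraction 3 and 7.91 ± 1.46 in Fraction 2 (1.98-fold above DZ, adjusted p = 0.011). Both were higher in Fraction 3 than in either other group. The gene 8430410A17Rik stood between the other groups, at 22.7 ± 2.97 in DZ, 13 ± 3.19 in Fraction 3 and 5.93 ± 0.406 in Fraction 2.

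**Figure D5:**
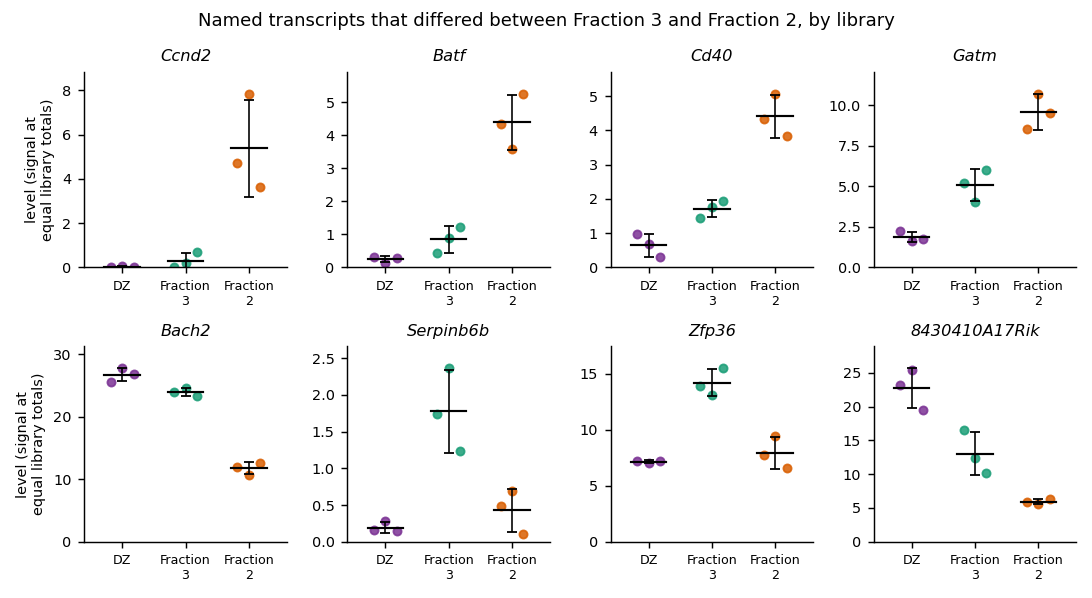
Level of the 8 named transcripts that differed between Fraction 3 and Fraction 2 at an adjusted p under 0.05 (vertical axes, signal at equal library totals) in each DZ, Fraction 3 and Fraction 2 library; dots are libraries, long bars means and whiskers ± 1 SD over 3 libraries. Ccnd2 and Batf are high in Fraction 2 alone among the groups shown, with means of 5.38 and 4.39, while Serpinb6b and Zfp36 peak in Fraction 3.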

How the data were processed

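RNA of 100 sorted cells per library was measured. Per the labels' protocols, ERCC RNA was added to each tube, cDNA was tagged with molecular barcodes and oligo(dT), and it was amplified by template switching and PCR. The submitters' processing notes name TopHat2 and mm10. The deposited table holds a signal per gene whose unit and scaling are not given in the sources used here. From the values, 91.3% to 92.5% of those above 0 in DZ and Fraction 3 were whole multiples (tolerance 0.02) of the most frequent value of the library. That value was read here as 1 molecule, and the rest were not whole multiples of it. Because the authors deposited values that are not whole, no count test was run. ERCC and mitochondrial rows in the table numbered 0, so RNA content against the spike-in was not analysed here.

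Each library was scaled to a total of 38594 without Rn45s. The model was 5 group means over all 15 libraries, fitted with limma 3.58.1 (R 4.3.3, variance trend on mean level) to log2(level + 1) for the 11190 genes that exceeded 0 in 3 or more of them. The threshold was an adjusted p under 0.05 (Benjamini-Hochberg, all tested genes). Fraction 1 and the plasmablasts entered for the spread. Groups came from the sample titles.

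The members, gene lists (34, with 1093 entries, of which 7 did not match a row) and tests were chosen with earlier results of these data known. Named genes were the 15 highest and 15 lowest changes among called genes without overlap and with a mean of at least 0.963 (the median level) in the higher group, up to 5 called members of each list by p, all sort markers and all zone key genes. Some genes that met this rule or are on the lists are not reported here. Positions came from GENCODE on mm10 for 78 of 78 named genes. Promoters came from the RefSeq table for 91 of the 118 called genes. The alternatives were other scalings, pseudocounts, filters, sample sets, a robust variance model, a replicate block and leaving out each library. The procedure was tested on simulated data. Figures used Python 3.11.15 with matplotlib 3.10.9.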

Additional observations from a re-analysis of the deposited data

Results flagged for a closer look

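In 8 named genes the difference between Fraction 3 and Fraction 2 passed the test, which means that the change from DZ differed between the CD69-low and the CD69-high light zone cells. In log2(level + 1), Fraction 3 minus Fraction 2, the differences were 0.96 for Serpinb6b, -0.81 for Gatm, 1.00 for 8430410A17Rik, 0.78 for Zfp36, -0.99 for Cd40, 0.97 for Bach2, -2.29 for Ccnd2 and -1.56 for Batf. Bach2, Ccnd2 and Batf kept the call without each of the 6 libraries in turn, with ranges of 0.91 to 1.02, -2.50 to -2.02 and -1.70 to -1.38. Zfp36 lost it without each of the 6 (0.67 to 0.90), and Gatm and Cd40 lost it without 5 of them (-0.92 to -0.68 and -1.07 to -0.91), Fraction 3 replicate 3 being the exception. Serpinb6b lost it without Fraction 3 replicates 1 or 2 or Fraction 2 replicates 1 or 3 (0.79 to 1.11), and 8430410A17Rik without Fraction 3 replicate 1 or Fraction 2 replicates 1 or 2 (0.83 to 1.15). On the deposited scale the calls of Serpinb6b, 8430410A17Rik, Zfp36 and Bach2 were lost.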

How the results depend on the processing

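The number of genes that differed between Fraction 3 and DZ, 118, was 27 on the deposited scale and 0 with the 2 groups alone, and 43 to 94 when 1 library was left out. The other alternatives gave 89 to 145. The 77 genes between Fraction 3 and Fraction 2 became 301 on the deposited scale (2 higher, where the median of all genes moved to -0.15), 44 with median ratios, 152 with a mean level of at least 1, 0 with the 2 groups alone and 40 with the replicate block, and 17 to 36 without 1 library. With the replicate block 89 genes differed between Fraction 3 and DZ. Equal numbers do not pair the samples by the labels, and the deviations of same-numbered libraries correlated at 0.0159 to 0.0375; 3 of 3 Fraction 3 libraries correlated best with their own number, a hint from the data and not from the design. Of 1321 values of named genes against DZ under alternatives, 1036 kept their direction and side of the threshold, 273 no longer passed it, 7 newly passed it and 5 changed sign, all of genes not called. These were S1pr2 on the deposited scale (-0.0027) and, over the omissions of 1 library, Cd69 (-0.11 to 0.33, below 0 without DZ replicate 1), S1pr2 (-0.033 to 0.13, Fraction 3 replicate 1), Irf4 (-0.039 to 0.32, Fraction 3 replicate 3) and Ezh2 (-0.019 to 0.13, DZ replicate 2); the cause was not tested. With 1 molecule at a level of 0.138 to 0.176, genes below that level in a group were not resolved.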

Other observations

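Several genes outside the lists and the naming rule were called and are given here after their values were seen. Both catalytic subunits of the oligosaccharyltransferase, which attaches N-glycans to proteins in the endoplasmic reticulum, were higher in Fraction 3. Stt3a had levels of 1.12, 1.52 and 0.723 in DZ and of 2.46, 3.68 and 3.70 in Fraction 3, and Stt3b was at 11.5 ± 1.61 and 18.1 ± 0.138 (limma adjusted p = 0.0108 and 0.0156). The stearoyl-CoA desaturase genes Scd1 and Scd2, which make monounsaturated fatty acids, were at 6.92 ± 0.861 and 12.3 ± 1.40 and at 3.99 ± 0.606 and 7.15 ± 0.951 (adjusted p = 0.015 and 0.0367). Cd52, a small glycoprotein of the lymphocyte surface, had levels of 47.4, 66.1 and 64.1 in DZ and of 103, 121 and 118 in Fraction 3 (change 0.95 ± 0.11, adjusted p = 0.000175). Hvcn1, a voltage-gated proton channel that B cells couple to their receptor, was at 12.3 ± 1.42 and 26.2 ± 3.57 (2.13-fold, adjusted p = 0.00476).

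Among the lower genes, the autophagy receptor Sqstm1 was at 4.90 ± 0.520 in DZ and 2.18 ± 0.366 in Fraction 3 (change -0.90 ± 0.17, adjusted p = 0.00995), the purine enzyme Ada at 7.99 ± 0.681 and 3.81 ± 0.559 (-0.91 ± 0.17, adjusted p = 0.00753) and the topoisomerase Top1 at 36 ± 3.56 and 23.4 ± 1.55 (-0.60 ± 0.13, adjusted p = 0.0215). Pxdc1 was higher in Fraction 3 than in both other groups, at 1.67 ± 0.0861 in DZ, 4.28 ± 1.12 in Fraction 3 and 1.11 in Fraction 2 (adjusted p = 0.0189 against DZ and 0.0038 against Fraction 2).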
